A study of Homo sapiens with 8 samples.

Results

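The mitochondrial respiratory chain beyond complex I is built by succinate dehydrogenase (complex II), the cytochrome bc1 complex (complex III), cytochrome c, cytochrome c oxidase (complex IV) and ATP synthase (complex V). The genes described here are all symbols in the files that begin with UQCR, COX4 to COX8 or ATP5, together with SDHA, SDHB, SDHC, SDHD, CYC1 and CYCS. The rule goes by name alone. They number 47 of the 15597 genes listed, with 4 of complex II, 10 of complex III, 1 for cytochrome c, 13 of complex IV and 19 of complex V. Of these, 44 reached 1 FPKM (reads per kilobase of gene, scaled to the library's reads) in at least 2 libraries and were tested.

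RNA was sequenced from SUDHL-4, an established cell line from a DLBCL (diffuse large B-cell lymphoma). The 4 groups were FDX1-overexpressing (FDX1-OE) cells with elesclomol (ES), control cells with ES, FDX1-OE cells with DMSO and control cells with DMSO. ES was given at 5 nM for 48 h, DMSO was the vehicle over the same 48 h, and each group had 2 libraries. The control cells are labelled as wild type (WT) in genotype. The labels do not name the vector that raised FDX1, do not say whether the FDX1-OE cells are 1 clone or a pool, and do not say whether libraries of a group came from separate cultures, and p-values then reflect the spread of these libraries alone, which may be technical. The series title sets the question of how FDX1 overexpression alters gene expression under elesclomol.

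Complex II oxidises succinate and hands the electrons to ubiquinone. Complex III passes them on to cytochrome c, and complex IV uses them to reduce oxygen, with copper and haem at its active centres. Complexes III and IV pump protons across the inner membrane, and ATP synthase lets them flow back through a rotating ring of c subunits to make ATP. Elesclomol binds copper and carries it into cells and mitochondria. FDX1 (ferredoxin 1) is an iron-sulfur protein of mitochondria that acts in protein lipoylation and can release the copper bound by elesclomol. All members are nuclear genes. The subunits of complexes III, IV and V that mitochondrial DNA encodes were not analysed here.

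The libraries held between 33435438 and 35883528 reads, as recovered from the FPKM values, and a tested member had between 144 and 65994 reads in a library. FDX1 itself stood at 82.5 and 84.8 FPKM in FDX1-OE cells and 21.3 and 21.4 in control cells with ES, against 72.4 and 69.9 in FDX1-OE cells and 25.6 and 22.2 in control cells with DMSO. The 6 B-cell markers summed to 1.71e+03 and 1.7e+03 FPKM in FDX1-OE cells and 1.69e+03 and 1.64e+03 in control cells with ES, against 1.34e+03 and 1.35e+03 in FDX1-OE cells and 1.44e+03 and 1.45e+03 in control cells with DMSO. Among them CD79A and CD22 were called higher with ES in both genotypes. The T-cell markers CD3D and CD3G stayed below 0.1 FPKM, whereas CD3E had 8.32 and 7.395 FPKM in FDX1-OE cells and 6.86 and 7.41 in control cells with ES, against 5.05 and 6.94 in FDX1-OE cells and 3.91 and 4.85 in control cells with DMSO and was called higher with ES in FDX1-OE cells (log2 change 0.35, adjusted p = 0.0346) and control cells (log2 change 0.60, adjusted p = 0.00417). The 6 myeloid markers summed to 36.7 and 39.7 FPKM in FDX1-OE cells and 16.5 and 12.3 in control cells with ES, against 8.18 and 7.07 in FDX1-OE cells and 4.3 and 4.03 in control cells with DMSO. That sum came almost wholly from CD68 and FCER1G, while CD14, LYZ, CSF1R and ITGAM lay at or below 0.28 FPKM in every library. The part of these markers in the results was not tested. Among the DMSO libraries, control replicate 1 stood apart for these genes. It gave the highest DMSO value for 36 of the 44 tested members and the highest of all 8 libraries for 24. FDX1-OE ES replicate 1 was the lowest of all 8 libraries for 17.

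Elesclomol lowered more of these genes than it raised, and ATP synthase held most of the falls. In FDX1-OE cells with ES, 15 of the 44 tested members fell and 8 rose relative to DMSO, where 19.2% of all 9805 tested genes fell and 37.0% rose. In control cells with ES, 13 fell and 3 rose, where 12.9% of all genes fell and 25.5% rose. The median log2 change of the members was -0.058 in FDX1-OE cells, against 0.094 over all genes, and -0.074 in control cells, against 0.063 over all genes. No member changed by 2-fold in any comparison. UQCRFS1, UQCRHL, CYCS, COX4I1, ATP5F1A, ATP5F1B, ATP5F1D, ATP5MC1, ATP5MC3 and ATP5ME fell in both genotypes, SDHC, COX6C and ATP5MC2 rose in both, and no member was called in opposite directions. How many of all tested genes were called alike in both genotypes was not counted, so this overlap is a description only. The ES changes of the genotypes had a Pearson r of 0.84 over all tested genes and 0.79 over the members.

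Calls were made with limma on log2(FPKM + 1) at an adjusted p below 0.05, and every called member had non-overlapping libraries in the groups compared. The split between rises and falls depended on the scaling. With RLE scaling, which sets the median ratio between libraries to 1, the median change of all genes in FDX1-OE cells moved to -0.031 and that of the members to -0.201, and 27 members fell and 1 rose, where 31.7% of all genes fell and 24.3% rose. In control cells the same scaling gave 22 falls and 2 rises, where 21.7% of all genes fell and 17.3% rose, with a median of -0.163 for the members and -0.013 for all genes. Values are shares of a library, so fewer cells of a type and less RNA per cell cannot be told apart. With 1 library of the compared groups left out, fewer members and fewer of all genes were called. In control cells the members' median was -0.037 without DMSO replicate 1, -0.117 without DMSO replicate 2, -0.069 without ES replicate 1 and -0.089 without ES replicate 2. The median of all genes in these fits lay between 0.056 and 0.067. In FDX1-OE cells the members' median was -0.081 without DMSO replicate 1, -0.080 without DMSO replicate 2, -0.040 without ES replicate 1 and -0.120 without ES replicate 2. That of all genes lay between 0.087 and 0.098.

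**Figure D1:**
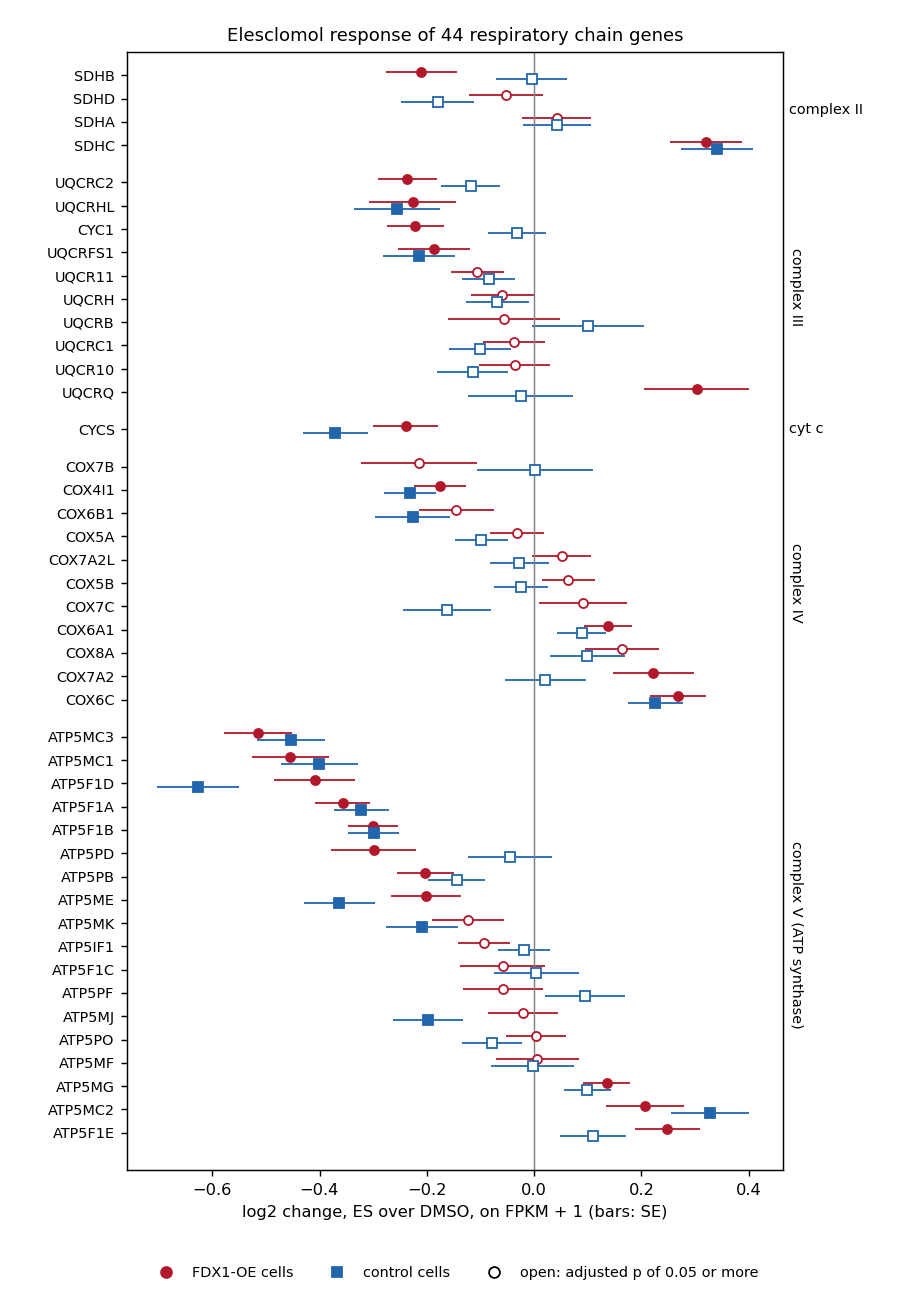
Log2 change of FPKM + 1 with ES over DMSO (x axis) for each of the 44 tested genes (y axis), grouped by complex, in FDX1-OE cells (red circles) and control cells (blue squares). Bars are standard errors from limma over 2 libraries a group, and filled symbols passed an adjusted p of 0.05. The changes lie between -0.63 (ATP5F1D in control cells) and 0.34 (SDHC in control cells), and most filled symbols of complex V lie left of 0.

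The summed level of each complex with ES is given as a percentage of its DMSO level. The summed FPKM of the complex V genes was 88.2% of its DMSO level in FDX1-OE cells with ES and 87.7% in control cells with ES. Cytochrome c, a single gene, stood at 84.6% and 77.1% in the same order, and complex III at 93.5% and 94.2%. Complex IV stood at 103% in FDX1-OE cells and 97.8% in control cells, and complex II at 96.1% and 100%. For complex V the 2 libraries of each ES group (2954.1 and 3018.8 FPKM in FDX1-OE cells, 3099.0 and 3136.2 in control cells) lay below both DMSO libraries of the same genotype (3417.9 and 3353.1 in FDX1-OE cells, 3679.6 and 3431.1 in control cells). The 44 tested genes together summed to 6345.4 and 6535.1 FPKM in FDX1-OE cells and 6673.1 and 6623.6 in control cells with ES, against 6924.1 and 6805.4 in FDX1-OE cells and 7444.7 and 6982.4 in control cells with DMSO. These sums give most weight to the genes with high levels, such as ATP5F1B, which averaged 931 FPKM over the 8 libraries, and COX6A1, which averaged 535. They were not tested.

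**Figure D2:**
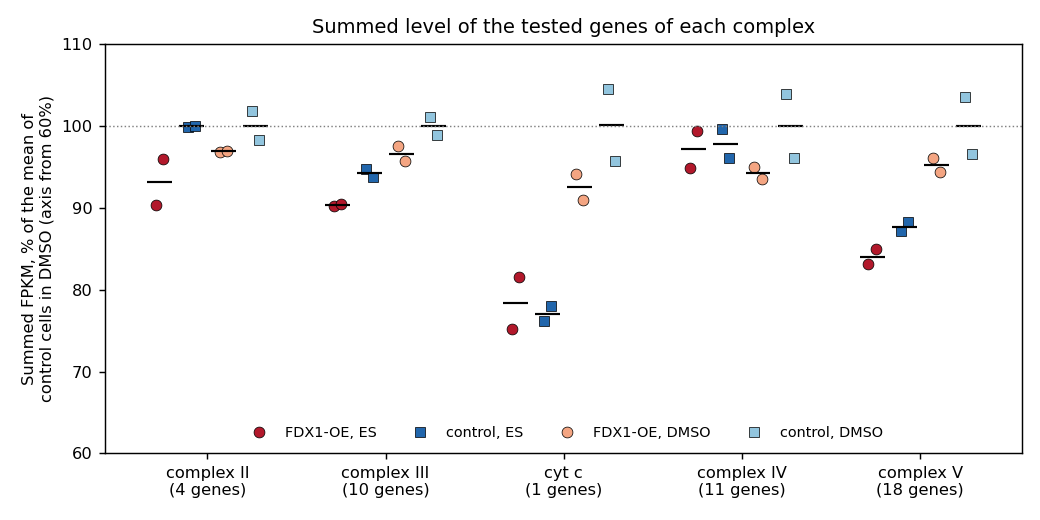
Summed FPKM of the tested genes of each complex (y axis, percent of the mean of control cells in DMSO, axis from 60%) in each library (points) with group means (lines), for FDX1-OE cells with ES, control cells with ES, FDX1-OE cells with DMSO and control cells with DMSO. The ES libraries lie below the DMSO libraries of the same genotype for complex III, cytochrome c and complex V.

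ATP synthase had the largest number of called genes. With ES, 8 of its 18 tested genes fell and 3 rose in FDX1-OE cells, where 19.2% of all genes fell and 37.0% rose. In control cells 8 fell and 1 rose, where 12.9% of all genes fell and 25.5% rose. The median log2 change was -0.109 in FDX1-OE cells and -0.112 in control cells. With RLE scaling 12 fell and 0 rose in FDX1-OE cells, and 10 fell and 1 rose in control cells. That scaling gave falls for 31.7% and 21.7% of all genes in the same order. In the F1 head, which binds nucleotides and makes ATP, the alpha, beta and delta subunits fell in both genotypes. ATP5F1D, the delta subunit of the central stalk, had 213 and 206 FPKM in FDX1-OE cells and 214 and 186 in control cells with ES, against 298 and 260.1 in FDX1-OE cells and 314 and 302 in control cells with DMSO. Both ES libraries of each genotype lay below both of its DMSO libraries. The ES level was 0.753 times the DMSO level in FDX1-OE cells (log2 change -0.41, SE 0.076, adjusted p = 0.00108) and 0.648 times in control cells (log2 change -0.63, SE 0.076, adjusted p = 0.000214), the largest fall of any member. ATP5F1A, the alpha subunit, had 101 and 101 FPKM in FDX1-OE cells and 108 and 105 in control cells with ES, against 130.2 and 129.7 in FDX1-OE cells and 139 and 128 in control cells with DMSO. Its ES level was 0.781 times the DMSO level in FDX1-OE cells (log2 change -0.36, SE 0.051, adjusted p = 0.000205) and 0.7998 times in control cells (log2 change -0.32, SE 0.051, adjusted p = 0.000962). ATP5F1B, the catalytic beta subunit and the member with the highest FPKM, had 811 and 821 FPKM in FDX1-OE cells and 861 and 846 in control cells with ES, against 1027 and 982 in FDX1-OE cells and 1080.1 and 1021 in control cells with DMSO. Its level fell to 0.812 times in FDX1-OE cells (log2 change -0.30, SE 0.047, adjusted p = 0.000362) and 0.813 times in control cells (log2 change -0.30, SE 0.047, adjusted p = 0.000909).

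Of the other F1 genes and the inhibitor, ATP5F1E was called. ATP5F1E, the epsilon subunit of the central stalk, had 39.5 and 38.8 FPKM with ES and 32.9 and 32.7 with DMSO in FDX1-OE cells and rose (log2 change 0.25, SE 0.061, adjusted p = 0.00555). It had 39.5 and 37.95 FPKM with ES and 37.8 and 33.9 with DMSO in control cells and was not called there (log2 change 0.11, adjusted p = 0.178). The rise in FDX1-OE cells was not called with RLE scaling (adjusted p = 0.154). ATP5F1C, the gamma subunit that turns inside the head, was not called in either genotype, with log2 changes of -0.06 in FDX1-OE cells (95% interval -0.23 to 0.12) and 0.0036 in control cells (-0.17 to 0.18). ATP5IF1, the inhibitor that stops ATP hydrolysis when the proton gradient fails, was also not called, with log2 changes of -0.09 (-0.20 to 0.01) and -0.02 (-0.13 to 0.09) in the same order. With RLE scaling ATP5F1C and ATP5IF1 were called lower in FDX1-OE cells.

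The c-ring genes ATP5MC1, ATP5MC2 and ATP5MC3 moved in opposite directions. They encode the same mature c subunit behind different import sequences, and ATP synthase needs a ring of these subunits to carry protons. ATP5MC1 had 107 and 116 FPKM in FDX1-OE cells and 121 and 117 in control cells with ES, against 158 and 149 in FDX1-OE cells and 170.03 and 146 in control cells with DMSO, and its ES level was 0.7298 times the DMSO level in FDX1-OE cells (log2 change -0.45, SE 0.072, adjusted p = 0.000365) and 0.758 times in control cells (log2 change -0.40, SE 0.072, adjusted p = 0.00177). ATP5MC3 had 82.9 and 73.7 FPKM in FDX1-OE cells and 86.8 and 83.8 in control cells with ES, against 113 and 112 in FDX1-OE cells and 121 and 113 in control cells with DMSO, and stood at 0.6998 times in FDX1-OE cells (log2 change -0.51, SE 0.063, adjusted p = 7.27e-05) and 0.731 times in control cells (log2 change -0.45, SE 0.063, adjusted p = 0.000476). Both genes were lower in every ES library than in every DMSO library. ATP5MC2 had 105 and 112 FPKM in FDX1-OE cells and 118 and 124 in control cells with ES, against 89.5 and 98.3 in FDX1-OE cells and 103 and 89.9 in control cells with DMSO. It rose to 1.15 times the DMSO level in FDX1-OE cells (log2 change 0.21, SE 0.073, adjusted p = 0.0325) and 1.25 times in control cells (log2 change 0.33, SE 0.073, adjusted p = 0.00574), and every ES library lay above every DMSO library.

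Together the c-ring genes summed to 295 and 302 FPKM in FDX1-OE cells and 325.8 and 325.2 in control cells with ES, against 359.7 and 359.1 in FDX1-OE cells and 394.3 and 349 in control cells with DMSO. ATP5MC2 made up 35.5% and 37.1% of that sum in FDX1-OE cells and 36.1% and 38.2% in control cells with ES, against 24.9% and 27.4% in FDX1-OE cells and 26.1% and 25.7% in control cells with DMSO. The shares do not depend on the scaling between libraries, and their ES and DMSO values did not overlap. The fall of ATP5MC1 and ATP5MC3 kept its call under all 15 alternatives in both genotypes. The rise of ATP5MC2 lost its call in control cells without DMSO replicate 2 (adjusted p = 0.0526). In FDX1-OE cells it lost its call with RLE scaling (adjusted p = 0.476), without the filter on low values (0.101), without ES replicate 2 (0.17) and without DMSO replicate 1 (0.223).

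**Figure D3:**
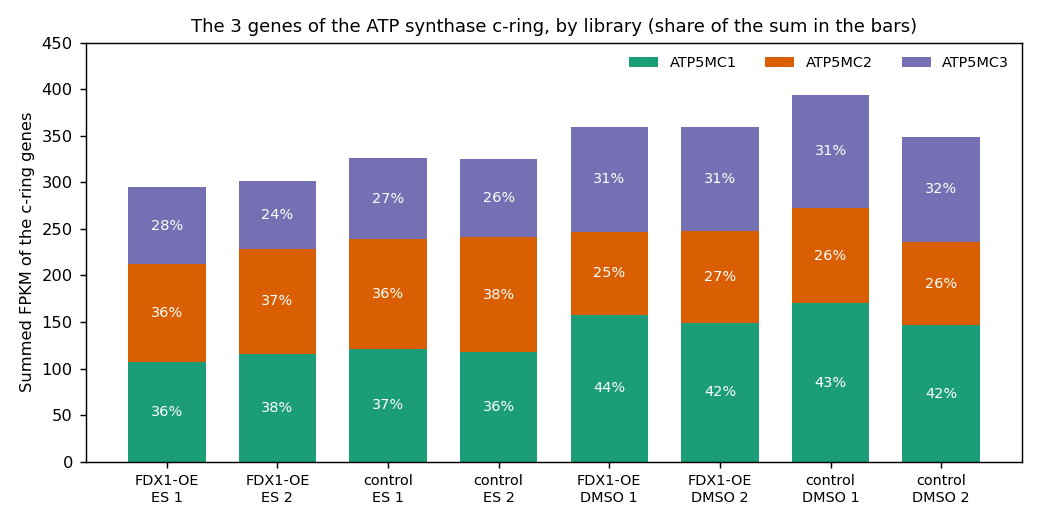
Stacked FPKM of ATP5MC1, ATP5MC2 and ATP5MC3 (y axis) in each of the 8 libraries (x axis), with each gene's percentage of the stack printed in its segment. ATP5MC2 fills 35.5% to 38.2% of the stack in the ES libraries and 24.9% to 27.4% in the DMSO libraries.

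The promoter windows of ATP5MC1 and ATP5MC2 are shown because these genes encode the same c subunit and moved in opposite directions with ES. That of ATP5ME is shown as an example from the 6 members with a window that fell in both genotypes. The windows run from 250 bases before to 50 bases after the gene start and are RefSeq sequence of GRCh38.p14, 5′ to 3′ along the gene. They are chr17:48892537-48892836 (plus strand) for ATP5MC1, chr12:53676034-53676333 (minus strand) for ATP5MC2 and chr4:674227-674526 (minus strand) for ATP5ME. Capitals mark matches, on either strand, to 4 motifs of factors that act on genes of respiration or growth. The motifs searched were the palindromic NRF1 motif, CCGGAAG (bound by ETS factors such as GABP), AANATGGC (bound by YY1) and CACGTG (the E-box, bound by MYC and others), and none of them contains another.
ATP5MC1: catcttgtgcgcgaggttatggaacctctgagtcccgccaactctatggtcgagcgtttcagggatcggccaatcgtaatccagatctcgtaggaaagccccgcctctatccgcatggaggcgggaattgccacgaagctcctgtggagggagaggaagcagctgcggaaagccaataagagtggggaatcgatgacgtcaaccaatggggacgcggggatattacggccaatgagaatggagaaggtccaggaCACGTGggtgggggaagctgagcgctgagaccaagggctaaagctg
ATP5MC2: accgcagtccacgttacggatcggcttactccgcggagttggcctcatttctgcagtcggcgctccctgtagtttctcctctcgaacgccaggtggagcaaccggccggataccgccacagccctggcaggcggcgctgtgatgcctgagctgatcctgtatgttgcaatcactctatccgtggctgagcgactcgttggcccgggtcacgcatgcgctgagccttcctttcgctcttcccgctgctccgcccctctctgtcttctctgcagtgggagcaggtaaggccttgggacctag
ATP5ME: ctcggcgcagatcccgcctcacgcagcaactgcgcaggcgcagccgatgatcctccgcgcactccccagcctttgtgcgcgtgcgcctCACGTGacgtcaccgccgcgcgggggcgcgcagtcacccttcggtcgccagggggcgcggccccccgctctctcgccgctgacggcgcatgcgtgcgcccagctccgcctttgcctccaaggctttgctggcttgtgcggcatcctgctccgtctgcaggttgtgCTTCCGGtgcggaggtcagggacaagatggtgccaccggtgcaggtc
The ATP5MC1 window held 1 E-box, the ATP5ME window 1 E-box and 1 ETS match (read on the opposite strand), and the ATP5MC2 window no match to these letters.

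Windows were found for 35 of the 44 tested members. The ETS letters occurred in 42.9% of these, against 22.3% of the windows of all tested genes and 10.7% of all 27305 windows. The YY1 letters occurred in 28.6%, against 11.9% and 6.82%. The NRF1 letters occurred in 5.71%, against 2.56% and 1.36%, and the E-box in 11.4%, against 10.8% and 7.43%. Of the 10 members that fell in both genotypes 6 had a window, and 2 of these held the ETS letters, 1 the YY1 letters, 2 the E-box and 0 the NRF1 letters. The 2 with an E-box were ATP5MC1 and ATP5ME, the windows shown above, so these do not stand for all 6. The windows of ATP5F1A and CYCS held no match. A match describes the letters only.

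The peripheral stalk genes and the membrane genes outside the c-ring were called in part. In FDX1-OE cells ATP5ME, ATP5PB and ATP5PD were called lower and ATP5MG higher, where 19.2% of all genes fell and 37.0% rose. In control cells ATP5ME, ATP5MJ and ATP5MK were called lower and none higher, where 12.9% of all genes fell and 25.5% rose. ATP5ME, the e subunit of the membrane part, had 178 and 157 FPKM in FDX1-OE cells and 155 and 162 in control cells with ES, against 198 and 186 in FDX1-OE cells and 210.4 and 198 in control cells with DMSO. It stood at 0.8698 times the DMSO level in FDX1-OE cells (log2 change -0.20, SE 0.066, adjusted p = 0.0229) and 0.778 times in control cells (log2 change -0.36, SE 0.066, adjusted p = 0.00186). ATP5PB and ATP5PD belong to the peripheral stalk that holds the head still. ATP5PD had 83.6 and 82.1 FPKM with ES and 97.9 and 107 with DMSO in FDX1-OE cells (log2 change -0.30, SE 0.079, adjusted p = 0.00815), and 87.8 and 102 FPKM with ES and 103 and 92.4 with DMSO in control cells (log2 change -0.05, adjusted p = 0.674). ATP5PB had 77.4 and 80.3 FPKM with ES and 92.2 and 89.5 with DMSO in FDX1-OE cells (log2 change -0.20, SE 0.053, adjusted p = 0.00815), and 84.1 and 82.4 FPKM with ES and 95.6 and 88.7 with DMSO in control cells (log2 change -0.14, adjusted p = 0.0539). Both passed the threshold in FDX1-OE cells and not in control cells, but the difference between the genotypes' responses was not called for ATP5PD (log2 change -0.25, adjusted p = 0.214) or ATP5PB (log2 change -0.06, adjusted p = 0.708). ATP5MJ (log2 change -0.20, adjusted p = 0.0346) and ATP5MK (log2 change -0.21, adjusted p = 0.0311), small membrane subunits, were called lower in control cells, and neither was called in FDX1-OE cells (log2 change -0.02, adjusted p = 0.807 and log2 change -0.12, adjusted p = 0.14). ATP5MG, the g subunit, had 282 and 278 FPKM with ES and 252 and 257 with DMSO in FDX1-OE cells and rose (log2 change 0.14, SE 0.044, adjusted p = 0.022), but with RLE scaling its log2 change was -0.0088. The peripheral stalk genes ATP5PO and ATP5PF and the membrane gene ATP5MF were not called in either genotype in the main fit. With RLE scaling ATP5PO and ATP5PB were called lower in control cells, and ATP5PF and ATP5MK in FDX1-OE cells.

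Calls for several of these genes were lost without the filter or in fits with 1 library fewer. Estimates could stay close to the main fit. For ATP5MJ in control cells the log2 change lay between -0.2172 and -0.1792 in these smaller fits, against -0.1982 with all libraries. In FDX1-OE cells, ATP5ME was not called without ES replicate 2 (log2 change -0.11, adjusted p = 0.192), without DMSO replicate 1 (0.153) or without the filter (0.0748), ATP5PD without DMSO replicate 2 (0.0672), and ATP5PB without ES replicate 1 (0.0508) or DMSO replicate 1 (0.0631). ATP5MG was not called in FDX1-OE cells without ES replicate 1 (0.0872), DMSO replicate 1 (0.136) or DMSO replicate 2 (0.0727). In control cells, ATP5MJ was not called when any 1 of the 4 control libraries was left out, with adjusted p between 0.0842 and 0.144, and ATP5MK without ES replicate 1 (0.0763), ES replicate 2 (0.115) or DMSO replicate 1 (0.184).

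Cytochrome c fell in both genotypes. CYCS encodes the soluble carrier that takes electrons from complex III to complex IV and that triggers apoptosis when it leaves the mitochondria. It had 62.6 and 67.9 FPKM in FDX1-OE cells and 63.4 and 64.98 in control cells with ES, against 78.4 and 75.8 in FDX1-OE cells and 86.97 and 79.7 in control cells with DMSO. Every ES library lay below every DMSO library. The ES level was 0.847 times the DMSO level in FDX1-OE cells (log2 change -0.24, SE 0.061, adjusted p = 0.00655) and 0.773 times in control cells (log2 change -0.37, SE 0.061, adjusted p = 0.00108). The call in FDX1-OE cells was lost without ES replicate 1 (adjusted p = 0.0565). GENCODE 29 names 40 pseudogenes after CYCS, and how reads that match several places were counted is not given in the sources used here.

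In FDX1-OE cells 1 of the 4 complex II genes rose with ES and 1 fell, where 37.0% of all genes rose and 19.2% fell. In control cells 1 rose and 0 fell, where 25.5% of all genes rose and 12.9% fell. The gene that rose was SDHC in both genotypes. SDHC, one of the membrane anchors that hold ubiquinone, had 38.5 and 43.5 FPKM in FDX1-OE cells and 39.99 and 41.1 in control cells with ES, against 32.4 and 32.8 in FDX1-OE cells and 33.1 and 30.6 in control cells with DMSO. Every ES library was above every DMSO library, and the ES level was 1.25 times the DMSO level in FDX1-OE cells (log2 change 0.32, SE 0.067, adjusted p = 0.00223) and 1.27 times in control cells (log2 change 0.34, SE 0.067, adjusted p = 0.00303). Both calls held under all 15 alternatives. SDHB, the iron-sulfur subunit that passes electrons from SDHA to ubiquinone, had 119.6 and 139 FPKM in FDX1-OE cells and 152 and 156 in control cells with ES, against 146 and 152 in FDX1-OE cells and 154 and 155 in control cells with DMSO. With ES it stood at 0.864 times the DMSO level in FDX1-OE cells (log2 change -0.21, SE 0.066, adjusted p = 0.0196), and in control cells the log2 change was -0.0049 (95% interval -0.15 to 0.14, adjusted p = 0.96). The lower of its FDX1-OE values with ES came from replicate 1, and without that library the fall was not called (log2 change -0.10, adjusted p = 0.178). The call also failed without replicate 2 of FDX1-OE cells in DMSO (adjusted p = 0.108) or when low genes were kept (0.0667). SDHA, the flavoprotein that oxidises succinate, had 68.7 and 61.1 FPKM in FDX1-OE cells and 66.9 and 63.3 in control cells with ES, against 63.6 and 62.2 in FDX1-OE cells and 61.5 and 64.8 in control cells with DMSO, and the groups overlapped in both genotypes. SDHD, the other membrane anchor, had 75.2 and 77.03 FPKM in FDX1-OE cells and 75.6 and 73.4 in control cells with ES, against 81.2 and 76.7 in FDX1-OE cells and 91.1 and 78.5 in control cells with DMSO, with log2 changes of -0.05 (adjusted p = 0.533) in FDX1-OE cells and -0.18 (adjusted p = 0.0593) in control cells, and was not called in either in the main fit. With RLE scaling SDHD was called lower in both genotypes.

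Complex III genes mostly lay lower with ES. In FDX1-OE cells 4 of 10 fell and 1 rose, where 19.2% of all genes fell and 37.0% rose. In control cells 2 fell and 0 rose, where 12.9% of all genes fell and 25.5% rose. The median log2 change was -0.083 in FDX1-OE cells and -0.093 in control cells, and in each genotype 9 of the 10 genes had a change below 0. Of all tested genes 38.5% lay below 0 in FDX1-OE cells and 39.7% in control cells. The counts depended on the scaling. With RLE scaling 8 fell and 0 rose in FDX1-OE cells, and 6 fell and 0 rose in control cells. That scaling gave falls for 31.7% and 21.7% of all genes in the same order. UQCRFS1, the Rieske iron-sulfur protein that moves electrons towards cytochrome c, had 32.95 and 32.3 FPKM in FDX1-OE cells and 36.2 and 31.5 in control cells with ES, against 36.9 and 37.7 in FDX1-OE cells and 40.3 and 38.5 in control cells with DMSO, with log2 changes of -0.19 (adjusted p = 0.0346) in FDX1-OE cells and -0.21 (adjusted p = 0.0277) in control cells. UQCRC2, a core subunit, had 107 and 110.2 FPKM in FDX1-OE cells and 115 and 123 in control cells with ES, against 124 and 132 in FDX1-OE cells and 132 and 126 in control cells with DMSO. It fell in FDX1-OE cells (log2 change -0.24, SE 0.054, adjusted p = 0.00386), a call held under all 15 alternatives, and was not called in control cells (log2 change -0.12, adjusted p = 0.109). CYC1 is the haem protein cytochrome c1, from which cytochrome c takes its electron. It had 131 and 123 FPKM in FDX1-OE cells and 144 and 141 in control cells with ES, against 154 and 143 in FDX1-OE cells and 144 and 148 in control cells with DMSO, and fell in FDX1-OE cells (log2 change -0.22, SE 0.053, adjusted p = 0.00502), whereas its libraries overlapped in control cells (log2 change -0.03, adjusted p = 0.657).

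UQCRQ, a small accessory subunit, was the complex III gene that rose. It had 39.98 and 46.5 FPKM in FDX1-OE cells and 40.4 and 34.5 in control cells with ES, against 37.6 and 32.1 in FDX1-OE cells and 39.3 and 36.9 in control cells with DMSO, with a log2 change of 0.30 (adjusted p = 0.022) in FDX1-OE cells and -0.03 (adjusted p = 0.859) in control cells. The hinge protein UQCRH, which helps cytochrome c dock, had 182 and 198 FPKM in FDX1-OE cells and 196 and 207 in control cells with ES, against 192 and 204 in FDX1-OE cells and 217 and 206 in control cells with DMSO, and was not called (log2 change -0.06, adjusted p = 0.407 in FDX1-OE cells and log2 change -0.07, adjusted p = 0.377 in control cells). UQCRHL, a copy of UQCRH, had 8.497 and 10.01 FPKM in FDX1-OE cells and 7.99 and 7.998 in control cells with ES, against 10.4 and 11.5 in FDX1-OE cells and 9.74 and 9.74 in control cells with DMSO, and was called lower in FDX1-OE cells (log2 change -0.23, adjusted p = 0.0334) and control cells (log2 change -0.26, adjusted p = 0.0285). It made up 3.72% to 5.35% of the summed FPKM of the pair over the 8 libraries, and its reads may be shared with UQCRH, so its value is uncertain. UQCRB had the lowest level of the complex III genes apart from UQCRHL, with a mean of 18.4 FPKM, on a gene length of 8710 bases recovered from the FPKM steps, the longest of any member. UQCRC1, UQCR10, UQCR11 and UQCRB were not called in either genotype in the main fit. With RLE scaling UQCRC1, UQCR10 and UQCR11 were called lower in both genotypes, UQCRH in FDX1-OE cells and UQCRC2 also in control cells.

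Several complex III calls were lost under alternative settings or in fits with 1 library fewer. A lost call need not mean a changed estimate. For UQCRHL in control cells the log2 change stayed between -0.2569 and -0.2552 whichever control library was left out, against -0.2560 with all libraries. UQCRFS1 was not called in FDX1-OE cells when any 1 of the 4 FDX1-OE libraries was left out (adjusted p between 0.0784 and 0.131), and not in control cells without ES replicate 2 (log2 change -0.12, adjusted p = 0.207), DMSO replicate 1 (0.142) or DMSO replicate 2 (0.0576). CYC1 was not called in FDX1-OE cells without DMSO replicate 1 (0.0628). UQCRQ was not called in FDX1-OE cells without ES replicate 2 (log2 change 0.20, adjusted p = 0.17), without DMSO replicate 2 (0.19, adjusted p = 0.175) or with RLE scaling (0.16, adjusted p = 0.175). UQCRHL was not called in control cells when any 1 of the 4 control libraries was left out (adjusted p between 0.0875 and 0.0992). In FDX1-OE cells it was not called without ES replicate 1 (log2 change -0.12, adjusted p = 0.267) or DMSO replicate 2 (0.201). By voom on the recovered reads it was not called in either genotype (adjusted p = 0.269 in each).

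Complex IV went both ways in the main fit but not with RLE scaling. In FDX1-OE cells 3 of its 11 tested genes rose and 1 fell, where 37.0% of all genes rose and 19.2% fell. In control cells 1 rose and 2 fell, where 25.5% of all genes rose and 12.9% fell. With RLE scaling 0 rose and 4 fell in each genotype. That scaling gave falls for 31.7% of all genes in FDX1-OE cells and 21.7% in control cells. COX4I1, the common form of subunit 4, which binds adenine nucleotides and sets the activity of the oxidase, had 251 and 248 FPKM in FDX1-OE cells and 251 and 254 in control cells with ES, against 281 and 283 in FDX1-OE cells and 307 and 286 in control cells with DMSO. Every ES library lay below every DMSO library. The ES level was 0.885 times the DMSO level in FDX1-OE cells (log2 change -0.18, SE 0.048, adjusted p = 0.0101) and 0.852 times in control cells (log2 change -0.23, SE 0.048, adjusted p = 0.00406). The fall in FDX1-OE cells was not called without DMSO replicate 2 (adjusted p = 0.0614). COX6C, a small subunit of the membrane part, had 126 and 129.9 FPKM in FDX1-OE cells and 129 and 123 in control cells with ES, against 106 and 107 in FDX1-OE cells and 111 and 104 in control cells with DMSO, and rose to 1.204 times in FDX1-OE cells (log2 change 0.27, SE 0.052, adjusted p = 0.00131) and 1.17 times in control cells (log2 change 0.23, SE 0.052, adjusted p = 0.00658). With RLE scaling both rises lost their call (adjusted p = 0.0567 in FDX1-OE cells and 0.0526 in control cells), as did that in control cells without DMSO replicate 2 (0.0532). GENCODE 29 names 17 pseudogenes after COX6C.

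The other calls of complex IV were small. COX6B1, which joins the monomers of the oxidase on the side of cytochrome c, had 235 and 245 FPKM in FDX1-OE cells and 249 and 246 in control cells with ES, against 273 and 258 in FDX1-OE cells and 315 and 268 in control cells with DMSO. It was called lower in control cells (log2 change -0.23, adjusted p = 0.0261), where DMSO replicate 1 was the high library, and without that library the log2 change was -0.11 (adjusted p = 0.213). In FDX1-OE cells its change was -0.15 (adjusted p = 0.0985), and with RLE scaling it was called lower there. COX7A2, the common form of subunit 7a, had 45.95 and 52.01 FPKM in FDX1-OE cells and 47.8 and 44.4 in control cells with ES, against 42.7 and 40.9 in FDX1-OE cells and 48.1 and 42.9 in control cells with DMSO, and rose in FDX1-OE cells (log2 change 0.22, adjusted p = 0.0273) but not without ES replicate 2 (log2 change 0.13, adjusted p = 0.208) and not with RLE scaling (0.375). COX6A1, the common form of subunit 6a, had 534 and 563 FPKM in FDX1-OE cells and 562 and 565 in control cells with ES, against 499 and 497 in FDX1-OE cells and 533 and 527 in control cells with DMSO. Its rise in FDX1-OE cells (log2 change 0.14, adjusted p = 0.0234) became -0.0069 with RLE scaling. COX7A2L, a factor that joins complexes III and IV into supercomplexes, had 35.03 and 36.5 FPKM in FDX1-OE cells and 35.99 and 35.6 in control cells with ES, against 35.04 and 33.9 in FDX1-OE cells and 37.6 and 35.5 in control cells with DMSO, and was not called in either genotype. COX8A, the common form of subunit 8, had 336 and 351 FPKM in FDX1-OE cells and 389.98 and 333 in control cells with ES, against 312 and 302 in FDX1-OE cells and 346 and 327 in control cells with DMSO, with changes of 0.16 (adjusted p = 0.0654) in FDX1-OE cells and 0.10 (adjusted p = 0.278) in control cells. COX5A, COX5B, COX7B and COX7C were not called in the main fit. With RLE scaling COX5A was called lower in both genotypes, COX7B in FDX1-OE cells and COX7C in control cells.

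Isoforms known from other tissues were at or near 0. COX4I2, the form of subunit 4 found in lung, stood at 0.03 FPKM in replicate 1 of each ES group and 0 elsewhere. COX8C, a testis form of subunit 8, reached 0.05 FPKM in FDX1-OE ES replicate 1 and 0.11 in control ES replicate 1 and was 0 elsewhere. ATP5MGL, a copy of ATP5MG, had 0.04 and 0.25 FPKM in FDX1-OE cells with ES and 0.07 in FDX1-OE DMSO replicate 2, and 0 elsewhere. These 3 genes were not tested.

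**Figure D4:**
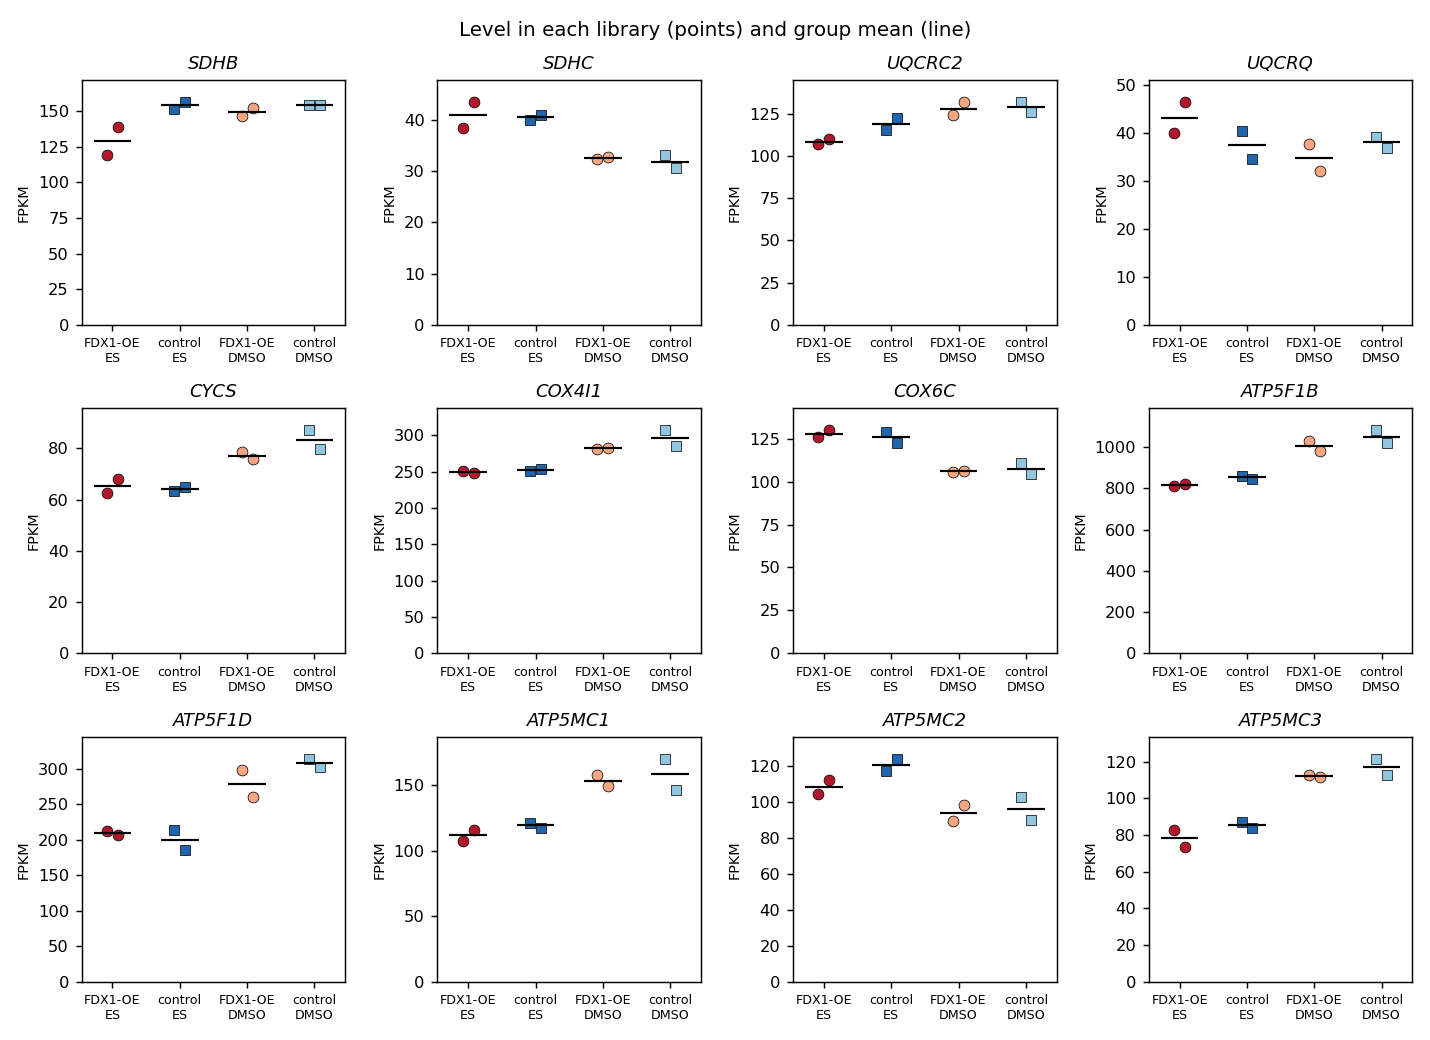
FPKM (y axis, from 0) of 12 genes in each library (points) with the group mean (line), for FDX1-OE cells with ES, control cells with ES, FDX1-OE cells with DMSO and control cells with DMSO, 2 libraries each. CYCS, COX4I1, ATP5F1B, ATP5F1D, ATP5MC1 and ATP5MC3 lie lower in all 4 ES libraries than in all 4 DMSO libraries, SDHC, COX6C and ATP5MC2 lie higher, and SDHB is lowest in FDX1-OE cells with ES.

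FDX1 overexpression by itself moved no member past the test. In DMSO, 0 of the 44 tested members were called higher or lower in FDX1-OE cells than in control cells by limma, where 0.428% of all tested genes were higher and 0.0816% lower. At an unadjusted p below 0.05 there were 2 members, and voom on the recovered reads called 0. RLE scaling also gave 0, where 49 of all 9805 genes were higher and 9 (0.0918%) lower. Of the 44 members 39 had a change below 0, with a median log2 change of -0.061, against 0.001 over all genes. Without control DMSO replicate 1, the library with high values, 25 of 44 lay below 0 and the median was -0.013. The changes lay between -0.188 and 0.156.

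With ES present, SDHB and CYC1 were called lower in FDX1-OE cells than in control cells, 2 of 44 members, where 7.78% of all tested genes were lower and 13.6% higher. SDHB had 119.6 and 139 FPKM in FDX1-OE cells and 152 and 156 in control cells with ES, 0.839 times the control level (log2 change -0.25, SE 0.066, adjusted p = 0.0218). CYC1 had 131 and 123 FPKM in FDX1-OE cells and 144 and 141 in control cells with ES, 0.892 times the control level (log2 change -0.17, SE 0.053, adjusted p = 0.0499). Neither call was kept under every alternative. SDHB was not called without FDX1-OE ES replicate 1 (log2 change -0.15, adjusted p = 0.146), without control ES replicate 2 (0.123) or without the filter on low values (0.0799). CYC1 was not called in 11 of the 15 alternatives, with adjusted p between 0.0522 and 0.218, among them each left-out ES library. With RLE scaling 7 members were called lower, namely SDHB, UQCRC2, CYC1, ATP5PD, ATP5PF, ATP5MG and ATP5IF1, where 13.0% of all genes were lower and 9.97% higher.

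The ES response of the members was not shown to differ between the genotypes. The interaction, the ES change in FDX1-OE cells less the ES change in control cells, called 0 of 44 members by limma, where 3.25% of all tested genes were called higher and 1.05% lower, and voom also called 0. RLE scaling gave 0 as well, where 2.56% of all genes were higher and 2.79% lower. At an unadjusted p below 0.05 there were 3 members. The interaction values lay between -0.254 (ATP5PD) and 0.328 (UQCRQ). For ATP5F1D, which fell further in control cells, the difference was 0.22 (95% interval -0.02 to 0.46, adjusted p = 0.264). For UQCRQ it was 0.33 (0.02 to 0.63, adjusted p = 0.197), for SDHB -0.21 (-0.41 to 0.00, adjusted p = 0.227) and for CYC1 -0.19 (-0.36 to -0.02, adjusted p = 0.176). Across the 44 members the ES changes of the genotypes, which share no library, had a Pearson r of 0.79 and a Spearman rho of 0.73, against 0.84 and 0.81 over all tested genes. Genes are not independent replicates, so these values are a description.

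**Figure D5:**
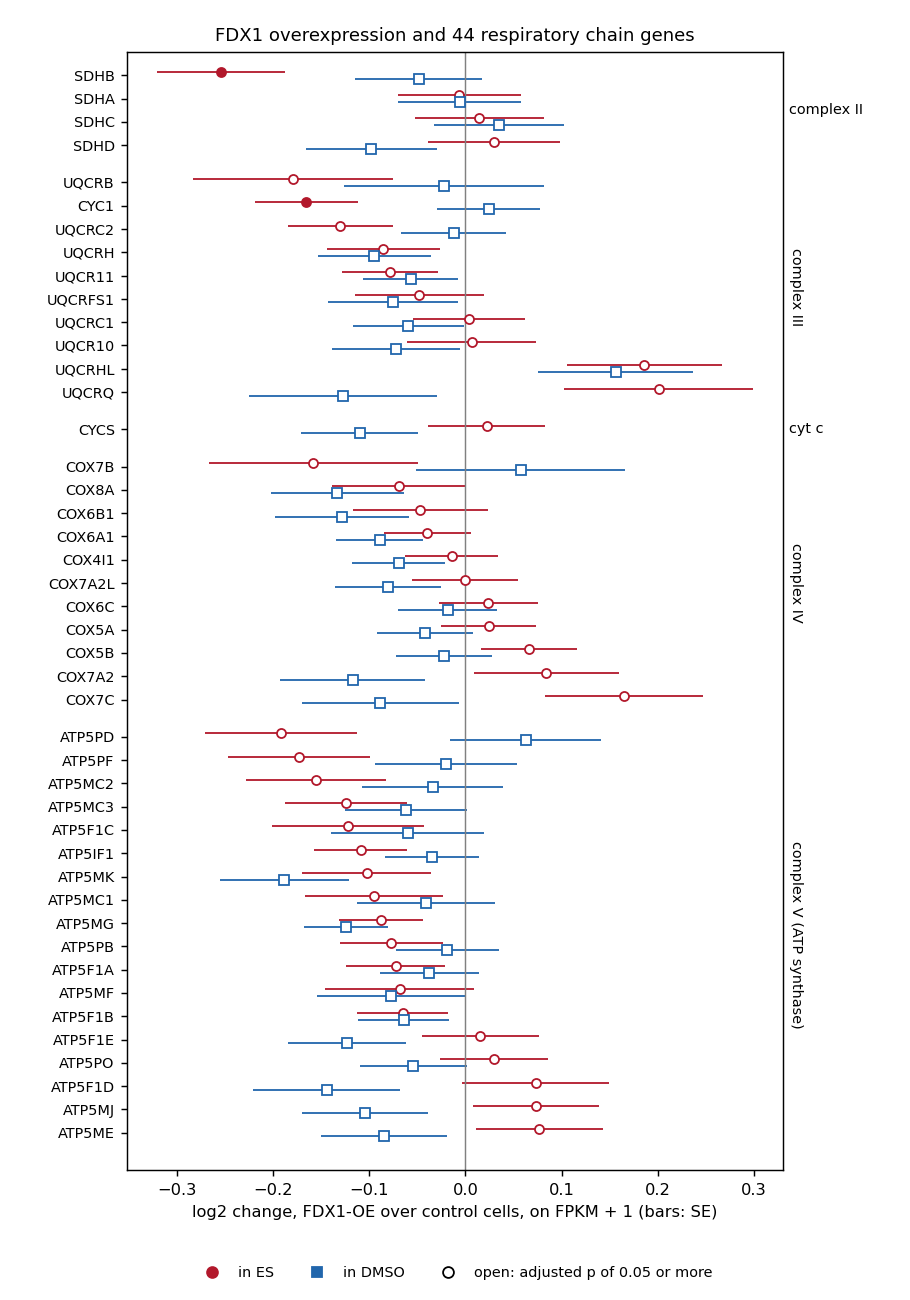
Log2 change of FPKM + 1 in FDX1-OE cells over control cells (x axis) for each of the 44 tested genes (y axis), grouped by complex, in ES (red circles) and in DMSO (blue squares). Bars are standard errors from limma over 2 libraries a group, and filled symbols passed an adjusted p of 0.05. Only SDHB and CYC1 in ES are filled, at -0.25 and -0.17.

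The counts for the factors that assemble complex IV depended on the scaling. Of 28 tested assembly factors of complex IV, 8 rose and 8 fell with ES in FDX1-OE cells, where 37.0% of all genes rose and 19.2% fell. In control cells 3 rose and 5 fell, where 25.5% of all genes rose and 12.9% fell, and the medians were -0.040 in FDX1-OE cells and -0.032 in control cells. With RLE scaling 4 rose and 11 fell in FDX1-OE cells (24.3% and 31.7% of all genes), and 0 rose and 8 fell in control cells (17.3% and 21.7%). COX17, which hands copper to the SCO proteins, had 40.9 and 40.2 FPKM in FDX1-OE cells and 35.6 and 39.3 in control cells with ES, against 34.6 and 32.6 in FDX1-OE cells and 38.3 and 35.5 in control cells with DMSO. It rose in FDX1-OE cells (log2 change 0.26, adjusted p = 0.00543, and adjusted p = 0.137 with RLE scaling) and was not called in control cells (log2 change 0.02, adjusted p = 0.822). SCO1 and SCO2, which insert copper into the oxidase, fell in both genotypes. SCO2 had 12.9 and 15.4 FPKM in FDX1-OE cells and 15.03 and 13.5 in control cells with ES, against 18.9 and 21.1 in FDX1-OE cells and 20.8 and 18.5 in control cells with DMSO, with changes of -0.47 (adjusted p = 0.00176) in FDX1-OE cells and -0.44 (adjusted p = 0.00516) in control cells. SCO1 had 5.34 and 5.85 FPKM in FDX1-OE cells and 5.905 and 6.43 in control cells with ES, against 6.95 and 7.41 in FDX1-OE cells and 7.18 and 7.62 in control cells with DMSO, with changes of -0.31 (adjusted p = 0.00522) and -0.23 (adjusted p = 0.0345) in the same order, and its call in control cells was lost without control ES replicate 1 (adjusted p = 0.18), without DMSO replicate 1 (0.0664), without DMSO replicate 2 (0.161) and without the filter (0.0763).

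COA6, a partner of the SCO proteins in copper delivery, had 12.7 and 13.3 FPKM in FDX1-OE cells and 12.5 and 13.3 in control cells with ES, against 16.2 and 16.9 in FDX1-OE cells and 20.9 and 17.5 in control cells with DMSO, and fell in FDX1-OE cells (log2 change -0.33, adjusted p = 0.00581) and control cells (log2 change -0.53, adjusted p = 0.000767). COX19, a copper-binding factor of the intermembrane space, had 7.81 and 7.62 FPKM in FDX1-OE cells and 6.65 and 6.53 in control cells with ES, against 5.44 and 5.67 in FDX1-OE cells and 5.57 and 5.07 in control cells with DMSO, and rose in FDX1-OE cells (log2 change 0.41, adjusted p = 0.000627) and control cells (log2 change 0.27, adjusted p = 0.0133). The call in control cells was lost with RLE scaling (adjusted p = 0.0525), without ES replicate 1 (0.0617) and without DMSO replicate 2 (0.0908). COX11, which delivers copper to the catalytic subunit, was not called, with 4.74 and 4.91 FPKM in FDX1-OE cells and 5.23 and 4.68 in control cells with ES, against 5.11 and 4.68 in FDX1-OE cells and 4.62 and 4.96 in control cells with DMSO. COA7, which also acts in the assembly of complex IV, had 8.86 and 8.49 FPKM in FDX1-OE cells and 10.7 and 11.4 in control cells with ES, against 15.8 and 14.8 in FDX1-OE cells and 15.4 and 14.7 in control cells with DMSO. Its ES level was 0.593 times the DMSO level in FDX1-OE cells (log2 change -0.75, adjusted p = 7.23e-06) and 0.751 times in control cells (log2 change -0.41, adjusted p = 0.000879). SURF1, which acts with haem in early assembly, had 18.4 and 18.99 FPKM with ES and 10.95 and 10.1 with DMSO in FDX1-OE cells, a rise to 1.71 times the DMSO level (log2 change 0.77, adjusted p = 0.000187). It had 18.3 and 13.6 FPKM with ES and 12.2 and 13.5 with DMSO in control cells and was not called there (log2 change 0.28, adjusted p = 0.068), and the difference between the genotypes' responses was 0.50 (adjusted p = 0.0946).

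Assembly factors of the other complexes were fewer. Of 5 tested factors of ATP synthase, 3 rose and 1 fell in each genotype. Of all genes 37.0% rose and 19.2% fell in FDX1-OE cells, and 25.5% rose and 12.9% fell in control cells. With RLE scaling 3 of these factors rose and 1 fell in FDX1-OE cells, and 0 rose and 1 fell in control cells. That scaling gave rises for 24.3% and falls for 31.7% of all genes in FDX1-OE cells, and 17.3% and 21.7% in control cells. ATPAF1, which guides the beta subunit into the F1 head, had 13.03 and 15.1 FPKM in FDX1-OE cells and 10.3 and 10.9 in control cells with ES, against 9.89 and 10.5 in FDX1-OE cells and 8.81 and 8.58 in control cells with DMSO, and rose in FDX1-OE cells (log2 change 0.43, adjusted p = 0.000771) and control cells (log2 change 0.26, adjusted p = 0.0207), whereas ATP5F1B fell in both. With RLE scaling the rise in control cells was not called (adjusted p = 0.0807), nor was it without ES replicate 2 (0.101), DMSO replicate 1 (0.0636), DMSO replicate 2 (0.0916) or the filter (0.0608). Of 6 factors of complex III, 2 rose and 2 fell in FDX1-OE cells, and 2 rose and 1 fell in control cells. With RLE scaling 1 rose and 2 fell in FDX1-OE cells, and 0 rose and 2 fell in control cells. UQCC2, which acts on newly made cytochrome b, rose to 1.72 times in FDX1-OE cells (log2 change 0.78, adjusted p = 5.1e-05) and 1.21 times in control cells (log2 change 0.28, adjusted p = 0.0328). The rise in control cells lost its call in 5 of 15 alternatives, and the difference between the genotypes was 0.50 (adjusted p = 0.0539). Of 4 factors of complex II, SDHAF3 fell in FDX1-OE cells (log2 change -0.25, adjusted p = 0.0235) and control cells (log2 change -0.24, adjusted p = 0.0336), and SDHAF2 rose in FDX1-OE cells (log2 change 0.30, adjusted p = 0.0235). These SDHAF2 and SDHAF3 calls were each lost in 4 or 5 of 15 alternatives.

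Genes that encode regulators of respiratory genes fell where they changed. Of 10 tested, 7 fell and 0 rose with ES in FDX1-OE cells, where 19.2% of all genes fell and 37.0% rose. In control cells 6 fell and 0 rose, where 12.9% of all genes fell and 25.5% rose. The medians were -0.369 in FDX1-OE cells and -0.217 in control cells. With RLE scaling 9 fell in FDX1-OE cells and 6 in control cells, where 31.7% and 21.7% of all genes fell. ESRRA, a nuclear receptor that acts on many genes of respiration, had 13.2 and 12.8 FPKM in FDX1-OE cells and 14.2 and 12.3 in control cells with ES, against 18.7 and 16.1 in FDX1-OE cells and 19.4 and 20.1 in control cells with DMSO, with changes of -0.39 (adjusted p = 0.00232) in FDX1-OE cells and -0.54 (adjusted p = 0.000747) in control cells. Its coactivator PPARGC1B had 2.75 and 2.93 FPKM in FDX1-OE cells and 3.03 and 3.04 in control cells with ES, against 4.92 and 4.71 in FDX1-OE cells and 4.35 and 5.18 in control cells with DMSO, with changes of -0.60 (adjusted p = 0.000189) and -0.51 (adjusted p = 0.00122) in the same order. TFAM, which packs mitochondrial DNA and activates its transcription, had 15.3 and 16.2 FPKM in FDX1-OE cells and 16.9 and 18.2 in control cells with ES, against 21.1 and 21.9 in FDX1-OE cells and 22.6 and 20.8 in control cells with DMSO, with changes of -0.43 (adjusted p = 0.000312) in FDX1-OE cells and -0.29 (adjusted p = 0.00669) in control cells. MYC, a growth regulator that also binds genes of mitochondria, had 122 and 132 FPKM in FDX1-OE cells and 137 and 155 in control cells with ES, against 186 and 191 in FDX1-OE cells and 163 and 182 in control cells with DMSO, with changes of -0.57 (adjusted p = 9.98e-05) in FDX1-OE cells and -0.24 (adjusted p = 0.0265) in control cells. The calls of ESRRA and PPARGC1B held under every alternative run. In control cells the call of TFAM was lost without DMSO replicate 1 (adjusted p = 0.0581), and that of MYC without ES replicate 1 (0.19), DMSO replicate 2 (0.19) or the filter (0.107). None of the assembly factors or regulators was called for FDX1-OE against control cells in DMSO or in the interaction.

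With ES present, UQCC2, COA5 and ATPAF1 were higher in FDX1-OE than in control cells, and COA4, COA7, LRPPRC, SLIRP and TFB2M were lower. LRPPRC and SLIRP form a complex that keeps the messenger RNAs of mitochondrial DNA stable. SLIRP had 92.8 and 106 FPKM in FDX1-OE cells and 121 and 134 in control cells with ES, against 134 and 152 in FDX1-OE cells and 150.3 and 143 in control cells with DMSO, and with ES its level in FDX1-OE cells was 0.781 times that in control cells (log2 change -0.36, adjusted p = 0.0113). LRPPRC had 36.3 and 38.6 FPKM in FDX1-OE cells and 43.2 and 45.03 in control cells with ES, against 46.4 and 46.97 in FDX1-OE cells and 48.03 and 44.9 in control cells with DMSO, and stood at 0.852 times in the same comparison (log2 change -0.23, adjusted p = 0.0181). Both calls were lost without FDX1-OE ES replicate 1 (adjusted p = 0.0901 for SLIRP and 0.116 for LRPPRC) and without control ES replicate 2 (0.0986 and 0.117 in the same order), and that of SLIRP also without the filter (0.0682). Each of the other 6 calls was lost in between 1 and 6 of 15 alternatives.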

How the data were processed

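The deposited values are FPKM, made by the authors for 15597 genes in each of 8 libraries. No header states the unit, which was read from the values. The genome build was hg19 and the tools included HTSeq, HISAT2 and R 3.2.0, per the submitters' processing notes. The annotation, the strand setting and the treatment of reads that match several places were not given in the sources used here. Whole reads were recovered from the FPKM steps for 100.0% of the genes within 0.02 read, with totals fixed on 298 genes, and served for depth and 1 alternative test. The tests ran in R 4.3.3 with limma 3.58.1 on log2(FPKM + 1), for genes that reached 1 FPKM in 2 or more libraries. The fit had 1 mean per group over the 8 libraries (4 residual and 6.6 prior degrees of freedom, trended empirical Bayes), with Benjamini-Hochberg adjustment over all tested genes and two-sided tests, called at an adjusted p below 0.05. The script was tested on simulated data. Fold changes are on the FPKM + 1 scale. Members, lists and motifs were chosen with earlier results of these data known. The rule for genes described in full covered, in each complex, up to 3 called genes with the largest change in each genotype, all SDH genes, CYCS and the isoform families. Values of COX6A1, ATP5F1A, ATP5F1B, ATP5F1E, ATP5ME, ATP5PB, ATP5PD, ATP5MG, ATP5MJ, ATP5MK and CYC1, which fall outside it, and of the named assembly factors and regulators were added after their values were seen. The alternatives were a pseudocount of 0.1, no filter or a mean of at least 5 FPKM, RLE scaling, voom on recovered reads, a fit to the 4 libraries compared, a replicate block and each of the 8 libraries left out. The same alternatives for the assembly factors and regulators were added after the data were seen. GENCODE 29 names 144 pseudogenes after 28 members, whose values are uncertain to that extent. With 2 libraries against 2, the smallest p of an exact permutation test is 0.33, so none was run.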

Additional observations from a re-analysis of the deposited data

How the results depend on the processing

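Of the 23 calls with ES in FDX1-OE cells, 7 held under all 15 alternatives (SDHC, UQCRC2, ATP5F1A, ATP5F1B, ATP5F1D, ATP5MC1 and ATP5MC3). Of the 16 in control cells 9 did (SDHC, CYCS, COX4I1, ATP5F1A, ATP5F1B, ATP5F1D, ATP5MC1, ATP5MC3 and ATP5ME), and neither of the 2 calls for FDX1-OE against control cells in ES did. Over all repeats, 300 of 345 calls were kept in FDX1-OE cells, 214 of 240 in control cells and 16 of 30 between the genotypes in ES. With RLE scaling 27 members fell and 1 rose in FDX1-OE cells, where 31.7% of all genes fell and 24.3% rose. In control cells 22 fell and 2 rose, where 21.7% of all genes fell and 17.3% rose. In ES, 7 were lower in FDX1-OE than in control cells, where 13.0% of all genes were lower. The same scaling reversed COX6A1 (-0.006863, adjusted p = 0.907) and ATP5MG (-0.008791, adjusted p = 0.878) in FDX1-OE cells. Without the filter on low values, which adds genes to the adjustment, 11 members fell and 5 rose in FDX1-OE cells. There 1672 of all 15597 genes fell and 4147 rose. In control cells 8 members fell and 3 rose, where 971 of all genes fell and 2144 rose. In ES, 0 members were lower in FDX1-OE cells, where 543 of all genes were lower. That last count of members was 1 with a pseudocount of 0.1, where 743 of 9805 genes were lower. It was also 1 in a fit to the 4 libraries compared, where 584 genes were lower. With 1 library left out, the falls numbered 10 to 17 in FDX1-OE cells and 8 to 13 in control cells, the rises 4 to 9 and 1 to 4 in the same order, and the genes lower in FDX1-OE than in control cells in ES 0 to 3. A lone library left in a group is assumed to vary like the other groups. The counts for FDX1-OE against control cells in DMSO, those of members higher in FDX1-OE cells in ES and those of the interaction were 0 under every setting run for them (the interaction has no fit to 4 libraries). The cause of these differences was not tested, apart from the fewer libraries of the left-out fits.

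Libraries that share a replicate number were not shown to be paired. Their deviations correlated between -0.18 and 0.18 over the group pairs. With a replicate block 15 members fell and 9 rose in FDX1-OE cells, where 1909 of all 9805 genes fell and 3666 rose. In control cells 14 members fell and 3 rose, where 1296 of all genes fell and 2508 rose. In ES, 2 members were lower in FDX1-OE than in control cells, where 808 of all genes were lower. The tested members had at least 144 reads in each library, and the smallest change called was 0.14 on the log2 scale.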
